A study of Mus musculus with 10 samples.

Results

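The blood proteins of complement and coagulation are mostly made by hepatocytes, and 43 of their genes were examined in mouse liver after phenobarbital. The genes were taken by name from both cascades, as secreted plasma proteins and their inhibitors, and read on the array through the gene symbols of the platform annotation. Of the 43, 40 had a probe set, a group of short probes that together read 1 transcript. For 39 genes at least 1 probe set carried that symbol alone, while C4b was read only by a probe set shared with its near copy C4a. C3, Cfd and Cpb2 had no probe set under their symbols and were not analysed here. The 39 genes are compared within 18193 genes of the array, each read by its brightest probe set unless another is named. C5ar1, a receptor on leukocytes, is the only listed gene whose product is not secreted.

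The animals were male B6C3F1/Crl mice, the cross of a C57BL/6 male and a C3H/He female. They were 29 to 32 days old on receipt and had 5 days to settle. In the treated group, 5 animals had free access to phenobarbital in their water (0.05% w/v) over 28 days, and 5 animals served as controls. Phenobarbital is a barbiturate that activates the constitutive androstane receptor in hepatocytes and promotes liver tumours in rodents. Each animal gave 1 whole-liver RNA sample and 1 Affymetrix array, and values are log2 expression levels as deposited. The comparison asks which transcripts differed between treated and control livers. In bulk liver, fewer cells of a type and less RNA per cell cannot be told apart.

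Complement is a chain of plasma proteases that mark and puncture microbes. It is started by antibody-bound C1, by the lectins that recognise microbial sugars together with their proteases, or by the alternative pathway, and it ends in a pore of C5b to C9. Coagulation is a second chain of proteases, set off by tissue factor with factor VII or by the contact factors, which makes thrombin and turns fibrinogen into fibrin. Inhibitors limit both chains, and plasmin dissolves the clot.

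Most of the 39 genes lay high on the scale, and most changed little. Leaving out C5ar1, control means ran from 8.84 for Pros1, a cofactor of the anticoagulant protein C, to 14.54 for Fgg, the fibrinogen gamma chain, on a scale that ended at 15.13. Compression near the top can understate a change. The limma test at an adjusted p of 0.05 called 3 genes higher (Masp2, F7 and F10) and 8 lower (Klkb1, C9, F5, Mbl1, C8a, F11, Kng1 and Mbl2). The other 28 were not called. Of all genes 9.02% were called higher and 11.3% lower, against 7.69% and 20.5% of the 39. Among 5557 genes with a mean above 8, a limit chosen after the values were seen, 8.85% were called higher and 17.8% lower. The 38 members above it had 7.89% and 21.1%. The median log2 change was -0.07 over the 39 genes and 0.01 over all genes. Above a mean of 8 it was -0.068 over the 38 members and -0.046 over the 5557 genes. On these brightest probe sets no difference reached 2-fold, and the largest was 1.42-fold (log2 -0.51, Klkb1). Dimmer probe sets of Masp1 and F5 gave larger ones, of -0.73 and -0.56.

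**Figure D1:**
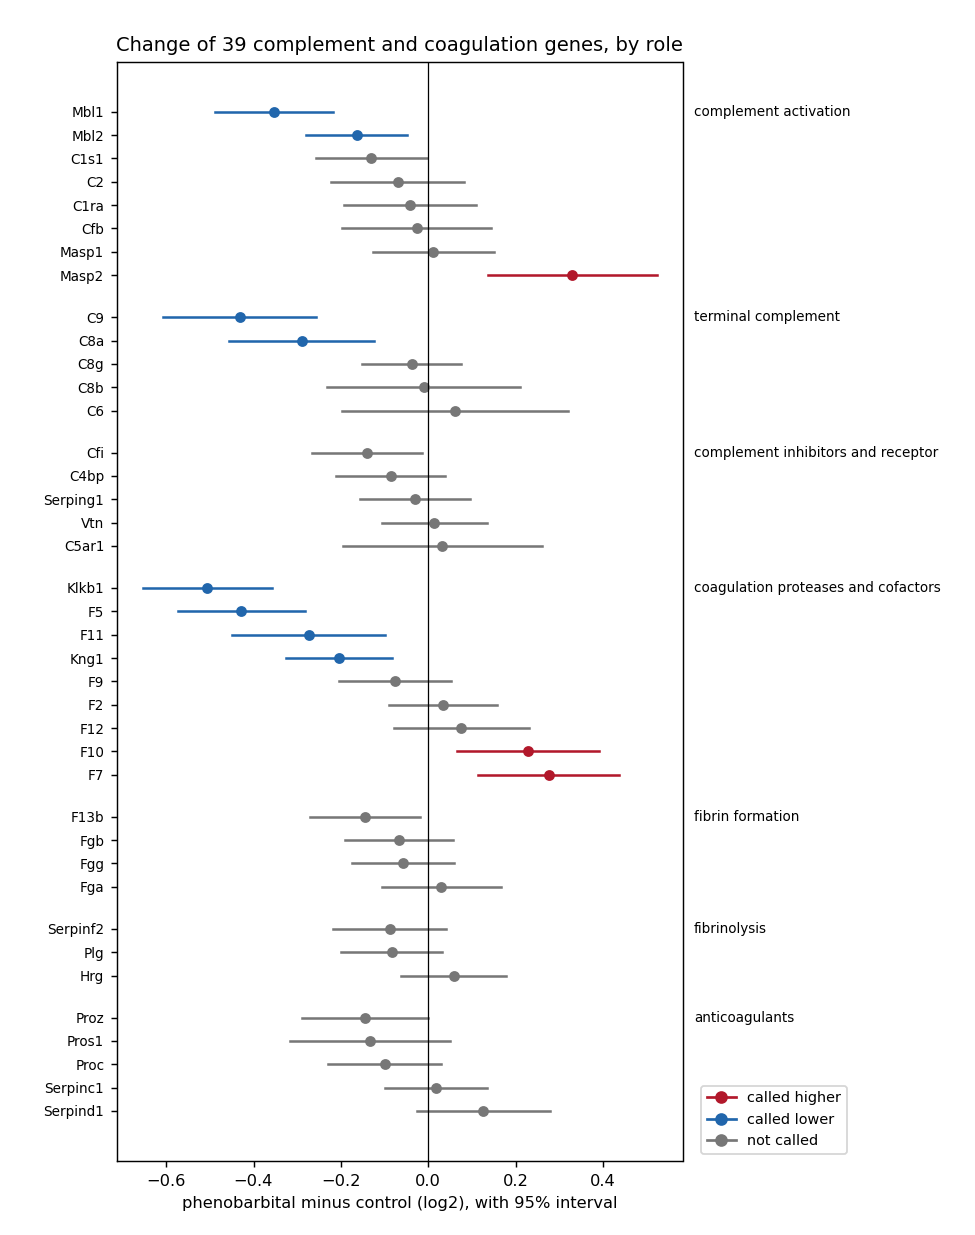
Difference between phenobarbital and control livers for each of the 39 genes, grouped by role; points are log2 differences of the group means (n = 5 each), lines are 95% intervals from limma, blue and red mark genes called lower and higher. The blue points lie between -0.51 and -0.16, the red points between 0.23 and 0.33, and no grey point goes beyond -0.14 or 0.13.

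A technical difference between the arrays runs alongside the treatment and touches all of these values. Bacterial poly-A spike-ins, which are added to the RNA before labelling, averaged 7.77 to 8.64 on control replicates 1, 2, 3 and 5. They averaged 6.40 on control replicate 4 and 5.76 to 6.58 on the treated arrays. No label names such a set. With the spike-in set as a block, the comparison reduces to the 5 treated animals against control replicate 4, and none of the 39 genes was called. Of all genes 0.786% passed with that block. The median difference was then -0.14 over the 39 genes and -0.04 over all genes. Control replicate 4 was also the highest control in 22 of the 38 members other than C5ar1 and the lowest in 6. Averaged over all 38, it lay 0.08 above the control mean. Without it, 4 of the 39 were called higher (10.3%) and 7 lower (17.9%), against 12.1% and 13.2% of all genes, and 10 of the 11 calls were kept. How much of the differences goes with the spike-in set was not tested beyond these values.

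Other measured features of the arrays and tissue are given here once. Array medians lay between 5.42 and 5.50. The upper quartile of an array was 7.39 to 7.46 in controls (7.41 on control replicate 4) and 7.30 to 7.36 in treated animals, so it was lower in every treated array. All 11 calls were kept after quantile normalisation, which makes the quartiles equal. Hepatocyte markers were all measured (10 of 10), 1 was called lower, and their summed level was 17.67 to 17.69 in controls and 17.62 to 17.66 in treated livers. Stellate cell markers were called lower in 4 of 7 (summed level 12.78 to 12.90 against 12.09 to 12.57), and sinusoidal endothelial markers in 4 of 8 (12.11 to 12.49 against 11.68 to 12.08). Macrophage markers had 1 called higher and 1 lower of 10 (12.20 to 12.52 against 12.21 to 12.59). Of the 5 measured neutrophil, 5 platelet, 5 adipocyte and 5 lymphocyte markers none was called. Cholangiocyte and exocrine pancreas lists each had 1 called higher, of 4 and 3 measured. Beside these counts, 9.02% of all genes were called higher and 11.3% lower. The part of these cells in the results below was not tested.

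The initiators of the lectin pathway held the complement calls nearest the start of the chain. Mbl1 and Mbl2 encode the mannose-binding lectins, plasma proteins that bind sugars on microbes and carry the MASP proteases. Mbl1 stood at 12.10, 12.18, 12.16, 12.23 and 12.11 in controls and at 11.70, 11.92, 11.79, 11.86 and 11.74 in treated animals. Every treated liver lay below every control, and the gene was 1.28-fold lower (log2 -0.35 ± 0.06 SE, limma adjusted p = 0.00303). Against control replicate 4 alone the difference was -0.43 (adjusted p = 0.105), and no omission of a single animal ended the call. Mbl2 was read at 13.04, 13.02, 13.08, 13 and 12.99 in controls and 12.90, 12.84, 12.87, 12.82 and 12.88 in treated animals. Its groups did not overlap either, but the difference was small (-0.16 ± 0.05 SE, limma adjusted p = 0.0469). It lost its call in 9 of 10 omissions, all but that of control replicate 4 (adjusted p = 0.0567 to 0.103), and after median centring of the arrays (-0.13, adjusted p = 0.112).

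The mannose-binding lectins act through Masp1 and Masp2, whose probe sets did not move together. Both genes are known to give several products by alternative splicing: MASP-1, MASP-3 and the protease-free MAp44 from Masp1, and MASP-2 and the short MAp19 from Masp2. The product that each probe set reads is not known here. On the brightest probe set Masp2 was 10.39, 10.21, 10.06, 10.56 and 10.24 in controls and 10.55, 10.77, 10.61, 10.63 and 10.55 in treated animals. Only control replicate 4 reached into the treated range, and the gene was called higher (0.33 ± 0.09 SE, limma adjusted p = 0.0222). Its difference against control replicate 4 was 0.06 (adjusted p = 0.881), and the call was lost without control replicate 2 or 3 or phenobarbital replicate 2 (adjusted p = 0.0552, 0.0520 and 0.0594).

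The second probe set of Masp2 went the opposite way. It was read at 9.61, 9.66, 9.59, 9.51 and 9.46 in controls and 9.41, 9.25, 9.43, 9.25 and 9.22 in treated animals, with no overlap (-0.25 ± 0.07 SE, limma adjusted p = 0.0250 over all 45037 probe sets tested singly). In that test 18.7% of probe sets were called, in either direction. The first minus the second probe set, taken within each array so that the whole array's level cancels, was 0.78, 0.55, 0.47, 1.05 and 0.78 in controls. It was 1.14, 1.52, 1.18, 1.38 and 1.33 in treated livers. All treated values lay above all controls (two-sided exact permutation p = 0.00794, the smallest that 5 against 5 allows, and 0.0278 after Benjamini-Hochberg over 14 such pairs). Control replicate 4 came closest, at 1.05 against 1.14 in the lowest treated liver. Against control replicate 4 alone, the first probe set was at 0.06 and the second at -0.20. No single direction can therefore be given for Masp2 as a gene.

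Masp1 showed the widest gap between probe sets of one gene. Its brightest probe set was not called (control 11.08 ± 0.06, treated 11.09 ± 0.09, SD, n = 5 each; 95% interval of the difference -0.13 to 0.15). A dimmer one was read at 9.40, 9.18, 9.33, 9.16 and 9.47 in controls and 8.62, 8.61, 8.72, 8.41 and 8.53 in treated animals. That is a clear separation of the groups, with a log2 difference of -0.73 ± 0.08 (SE, limma adjusted p = 0.000277 over probe sets). A further probe set was lower by the same test (-0.40 ± 0.08 SE, adjusted p = 0.00604), as was a dim one near 4.66 (-0.47 ± 0.11 SE, adjusted p = 0.0130), and the last did not pass (-0.20 ± 0.09 SE, adjusted p = 0.140). That last probe set, at 6.48 in controls, is listed under the same source sequence as the one at -0.73. The brightest minus the most changed probe set was 1.76, 1.95, 1.71, 1.86 and 1.56 in controls and 2.40, 2.49, 2.50, 2.70 and 2.46 in treated livers. Control replicate 4, at 1.86, lay among the other controls, 0.54 below the lowest treated value (exact permutation p = 0.00794, Benjamini-Hochberg 0.0278). With the spike-in set as a block the most changed probe set was at -0.58 (adjusted p = 0.111). When the probe sets of Masp1 were averaged, the gene was called lower (-0.36, adjusted p = 0.00118).

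Within-array differences between probe sets were compared for 14 pairs in 9 genes, and 4 pairs passed, 2 of Masp1 and 1 each of Masp2 and C2. In C2 the difference between 2 probe sets of like brightness moved from 0.16 ± 0.05 to -0.05 ± 0.05 (SD, n = 5), with neither called alone. In Proz, whose product helps inhibit factor Xa, the brighter probe set was -0.14 ± 0.07 (SE) and the dimmer 0.35 ± 0.10, called higher alone (adjusted p = 0.0271), and their difference did not pass (exact permutation p = 0.0238, Benjamini-Hochberg 0.0556). The 3' minus 5' difference of the beta-actin control probe sets also moved with the groups, from 1.28 to 1.78 in controls (1.28 on control replicate 4) and 1.19 to 1.33 in treated arrays. The same difference for Gapdh was -0.15 to -0.03 in controls and -0.28 to -0.21 in treated arrays, without overlap. Control replicate 4, at -0.15, was level with control replicate 5 and above every treated array. In the Masp1 pairs that passed, control replicate 4 lay among the other controls. In the Masp2 pair it was the control nearest the treated animals, at 1.05 against 0.47 to 0.78 in the other controls. The lowest treated value of that pair was 1.14. The part of these signs of RNA quality in the disagreement between probe sets was not tested. The position of a probe set along its transcript is not used here.

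**Figure D2:**
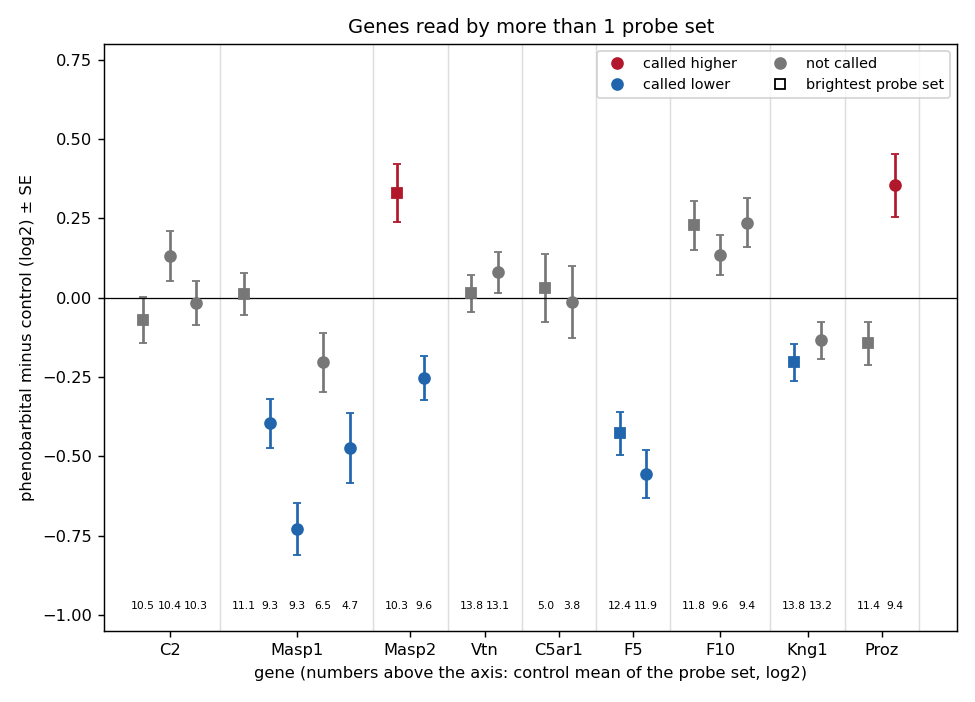
The 9 genes read by more than 1 probe set of their own; each point is the log2 difference of a probe set between phenobarbital and control livers with its SE (n = 5 each), ordered by brightness, and squares mark the brightest. Masp2 has a red square at 0.33 and a blue point at -0.25, and Masp1 runs from 0.01 on its brightest probe set to -0.73.

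The other initiators were not called. These were C1ra and C1s1, the proteases of the C1 complex, C2, the protease of the classical convertase, and Cfb, that of the alternative convertase. Their differences were -0.04 for C1ra, -0.13 for C1s1, -0.07 for C2 and -0.03 for Cfb (adjusted p = 0.137 to 0.846). In Cfb control replicate 4 stood above every other animal: it was 12.22 there, 11.82 to 11.97 in the other controls and 11.85 to 12.02 in treated animals. The probe set shared by C4b, the precursor of the classical convertase, and its near copy C4a was at 12.91 in controls and 12.80 in treated livers (-0.11 ± 0.07 SE, limma adjusted p = 0.287 over probe sets).

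In the terminal pathway, 2 of the 5 genes were called lower, against 11.3% of all genes and 17.8% of those with a mean above 8. C9 forms the bulk of the membrane pore, and C8a encodes the alpha chain of C8, which inserts first. C9 was 13.71, 13.70, 13.81, 13.82 and 13.76 in controls and 13.59, 13.26, 13.15, 13.24 and 13.40 in treated animals. Its groups did not overlap, phenobarbital replicate 1 coming closest to the controls, and it was 1.35-fold lower (log2 -0.43 ± 0.08 SE, limma adjusted p = 0.00406). It kept its call without any single animal, and its difference against control replicate 4 was -0.49 (adjusted p = 0.154).

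C8a was read at 13.14, 13.22, 13.25, 13.29 and 13.12 in controls and 13.06, 12.76, 12.76, 13.04 and 12.95 in treated animals. The nearest animals of the groups differed by less than the spread within the treated group (-0.29 ± 0.08 SE, limma adjusted p = 0.0199), and the call was lost without phenobarbital replicate 2 (-0.25, adjusted p = 0.0542). C8b and C8g, the other chains of the same complex, were not called, at -0.01 ± 0.10 and -0.04 ± 0.05 (SE). Whether the 3 chains differed from each other was not tested. C6, an earlier part of the pore, varied widely among controls, from 10.57 to 11.20, and was not called (0.06 ± 0.12 SE, adjusted p = 0.748).

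None of the 5 genes for complement inhibitors and receptor was called. Cfi, the protease that cuts C3b and C4b, came nearest, with 13.59 to 13.74 in controls and 13.43 to 13.58 in treated animals (-0.14 ± 0.06 SE, limma adjusted p = 0.107). It passed only with a trend and robust variance (adjusted p = 0.0239). C4bp, a cofactor of factor I, was at -0.09, Serping1, the C1 inhibitor, at -0.03, and Vtn, vitronectin, which blocks pore insertion, at 0.01 (95% interval -0.11 to 0.13). C5ar1, the receptor of the C5a fragment, was below the array medians, at 4.96 ± 0.24 in controls and 5.00 ± 0.11 in treated livers (SD, n = 5).

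Among coagulation proteases and cofactors, 4 of 9 genes were called lower and 2 higher. The shares were 11.3% and 9.02% of all genes, and 17.8% and 8.85% of those with a mean above 8. Klkb1 (plasma prekallikrein), Kng1 (high molecular weight kininogen) and F11 (factor XI), which fell, work together with F12 (factor XII) in contact activation on charged surfaces. Klkb1 was 12.24, 12.29, 12.36, 12.07 and 12.24 in controls and 11.66, 11.76, 11.81, 11.79 and 11.65 in treated animals. On the brightest probe sets it had the largest difference of the 39 genes, 1.42-fold lower with no overlap (log2 -0.51 ± 0.07 SE, limma adjusted p = 0.000662). Control replicate 4 was the lowest control, and against it the difference was -0.34 (adjusted p = 0.184). The call held in every omission of 1 animal.

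Kng1 was read at 13.77, 13.85, 13.77, 13.76 and 13.75 in controls and 13.55, 13.56, 13.63, 13.63 and 13.51 in treated animals. All treated values lay below the controls (-0.20 ± 0.06 SE, limma adjusted p = 0.0234), although a second probe set did not pass (-0.13 ± 0.06 SE, adjusted p = 0.129 over probe sets). The call was lost without control replicate 2 or phenobarbital replicate 2 or 5 (adjusted p = 0.0582, 0.0557 and 0.0556) and after median centring (-0.17, adjusted p = 0.0635).

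F11 was 10.56, 10.40, 10.59, 10.77 and 10.61 in controls and 10.17, 10.40, 10.34, 10.45 and 10.20 in treated livers. The groups met at control replicate 2, whose value phenobarbital replicates 2 and 4 reached or passed (-0.27 ± 0.08 SE, limma adjusted p = 0.0316). It lost its call in 6 of 10 omissions, those of control replicates 1, 3, 4 and 5 and phenobarbital replicates 1 and 5 (adjusted p = 0.0510 to 0.0719), and after median centring (-0.24, adjusted p = 0.0552). F12 was not called (0.08 ± 0.07 SE; 95% interval -0.08 to 0.23).

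F5, the cofactor that factor Xa needs to make thrombin, also fell. It was 12.35, 12.47, 12.57, 12.33 and 12.36 in controls and 11.93, 11.95, 12.05, 12.08 and 11.93 in treated animals. The groups were well apart (1.35-fold lower, log2 -0.43 ± 0.07 SE, limma adjusted p = 0.00163). A second probe set read the same direction, at -0.56 ± 0.08 (SE, adjusted p = 0.00115 over probe sets). The call held without any single animal, and the difference against control replicate 4 was -0.34 (adjusted p = 0.216).

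The rises in coagulation were F7 and F10, the vitamin K-dependent proteases that tissue factor brings together at the start of clotting. F7 was 11.49, 11.31, 11.20, 11.49 and 11.36 in controls and 11.53, 11.65, 11.62, 11.79 and 11.64 in treated animals, an upward shift without overlap (0.28 ± 0.07 SE, limma adjusted p = 0.0217). It was lost without control replicate 2 or 3 or phenobarbital replicate 4 (adjusted p = 0.0529, 0.0517 and 0.0558), and the difference against control replicate 4 was 0.16 (adjusted p = 0.637). F10 was 11.77, 11.80, 11.64, 12.02 and 11.75 in controls and 12.06, 12, 11.97, 12.14 and 11.95 in treated animals. Control replicate 4 was level with the treated animals, and the difference of 0.23 ± 0.08 (SE) only just passed (limma adjusted p = 0.0488). The call was lost in 9 of 10 omissions, all but that of control replicate 4 (adjusted p = 0.0601 to 0.113), and the difference against that animal was 0.004. Both other probe sets of F10 were higher in value without passing (0.24 and 0.13, adjusted p = 0.0504 and 0.156). F2 and F9, which encode prothrombin and factor IX, were not called (0.03 ± 0.06 and -0.08 ± 0.06 SE).

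**Figure D3:**
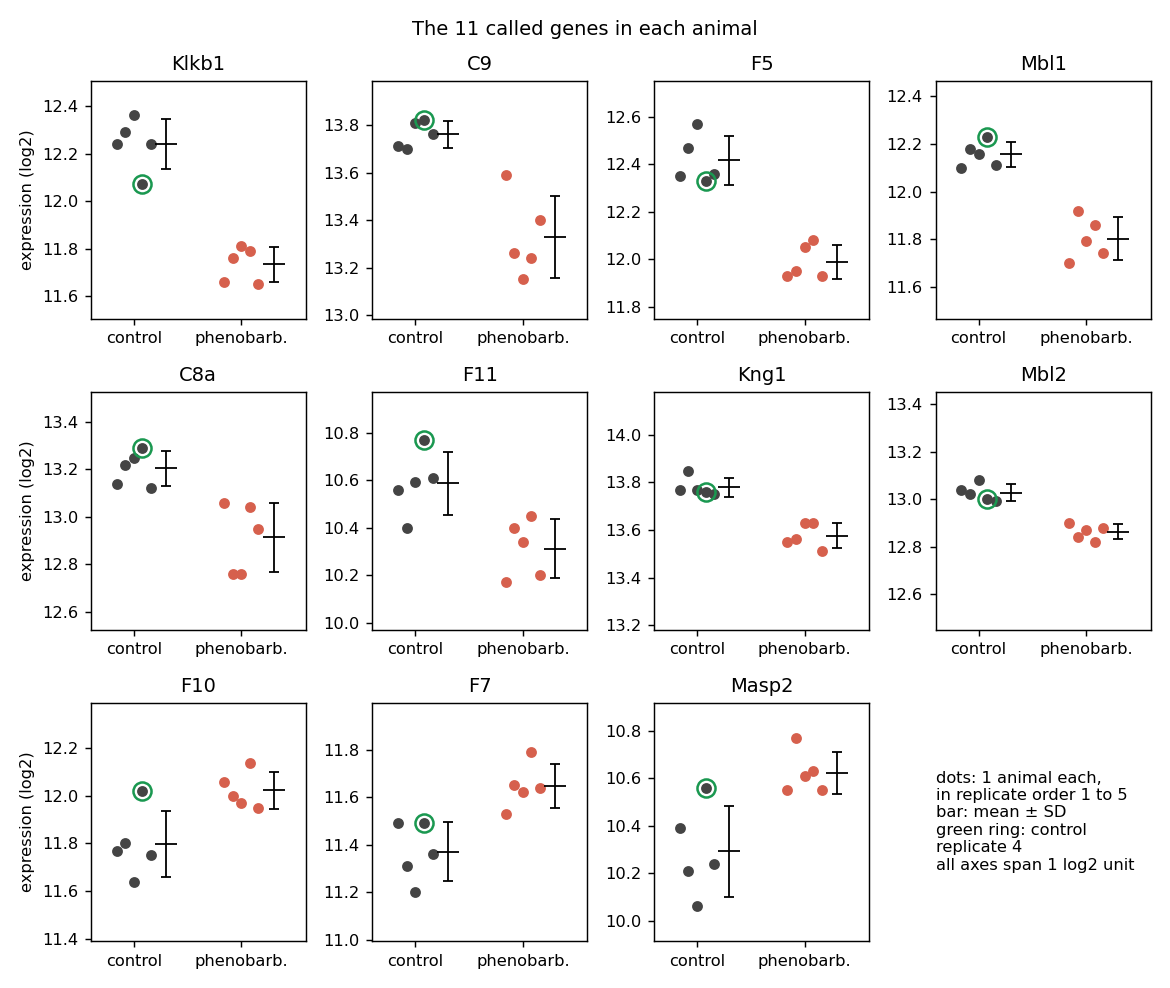
Log2 expression of the 11 called genes in each of the 5 control and 5 phenobarbital livers, with mean and SD; every panel spans 1 log2 unit and the ring marks control replicate 4. The groups are apart in all animals in Klkb1, C9, F5, Mbl1, C8a, Kng1 and Mbl2, which are lower, and in F7, which is higher. They overlap in F11, F10 and Masp2. The ringed control lies at 12.02 in F10 and 10.56 in Masp2, within the treated range.

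The F7 and F10 genes stand side by side in the RefSeq gene order, followed by Proz, and F11 stands beside Klkb1. The listed genes form 6 such runs of neighbours. In 2 of them more than 1 gene was called, in the same direction each time: F7 and F10 higher, F11 and Klkb1 lower. F10 lost its call in 9 of 10 omissions of 1 animal, and F11 in 6 of 10. Proz was not called on its brightest probe set, but its dimmer one was called higher (0.35, limma adjusted p = 0.0271 over probe sets). How often neighbouring genes of the whole array were called in the same direction was not computed. In the run of C8b and C8a only C8a was called, and no gene was called in the fibrinogen run, that of C1ra and C1s1, or that of Cfb and C2. The upstream sequence of these 4 called neighbours is shown because each pair shares a locus and a direction. The pairs were chosen after the values were seen. Each is the 200 bases before the RefSeq start on GRCm38.p6, 5′ to 3′ on the gene's strand. F7 is at chr8:13025834-13026033 and F10 at chr8:13037108-13037307, both on the plus strand. F11 is at chr8:45262032-45262231 and Klkb1 at chr8:45294836-45295035, both on the minus strand. Capitals mark matches, on either strand, to the motifs described next.
F7: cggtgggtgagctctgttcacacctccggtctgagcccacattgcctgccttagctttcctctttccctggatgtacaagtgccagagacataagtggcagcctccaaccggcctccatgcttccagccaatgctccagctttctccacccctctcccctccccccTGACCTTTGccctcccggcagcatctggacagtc
F10: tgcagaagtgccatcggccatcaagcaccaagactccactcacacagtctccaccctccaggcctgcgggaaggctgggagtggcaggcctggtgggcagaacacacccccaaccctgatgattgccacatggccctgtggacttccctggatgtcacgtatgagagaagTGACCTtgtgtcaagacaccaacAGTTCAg
F11: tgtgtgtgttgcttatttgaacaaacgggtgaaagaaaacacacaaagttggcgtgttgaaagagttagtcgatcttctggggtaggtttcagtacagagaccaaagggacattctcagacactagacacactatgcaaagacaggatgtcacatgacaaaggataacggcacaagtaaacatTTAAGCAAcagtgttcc
Klkb1: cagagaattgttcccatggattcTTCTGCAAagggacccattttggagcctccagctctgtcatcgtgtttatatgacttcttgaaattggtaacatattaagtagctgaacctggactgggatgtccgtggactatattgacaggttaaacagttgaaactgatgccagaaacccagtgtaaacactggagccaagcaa

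The motifs searched were CAAAGNNCA, of the kind bound by the hepatocyte factor HNF4, TTGCNNAA, a C/EBP-type site, GTTAAT, an HNF1 half-site, and AGGTCA and AGTTCA, half-sites of nuclear receptors. F7 held the HNF4-type match starting 34 bases before the start, which contains the AGGTCA match. Of 32851 RefSeq windows of the same length, 4.36% held the HNF4-type motif and 11.4% AGGTCA. F10 held AGGTCA 30 bases and AGTTCA 7 bases before its start, the latter found in 9.28% of windows. F11 and Klkb1 held a C/EBP-type match each, 17 and 177 bases before the start, as did 7.47% of windows. None of the 4 held GTTAAT, found in 5.06%. A match is a description of letters, and binding was not measured.

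The genes of fibrin formation were among the brightest, and none was called. Fga, Fgb and Fgg, the chains of fibrinogen, had control means of 13.96, 14.42 and 14.54 and differences of 0.03 ± 0.06, -0.07 ± 0.06 and -0.06 ± 0.05 (SE). Their 95% intervals, which together run from -0.19 to 0.17, contain no change as large as that of Klkb1, with the reservation that such bright values can be compressed. F13b, the carrier chain of the fibrin cross-linking factor XIII, was 11.90 to 12.02 in controls and 11.70 to 11.87 in treated animals. Those ranges did not overlap, yet the difference did not pass (-0.14 ± 0.06 SE, limma adjusted p = 0.0968), except with a trend and robust variance (adjusted p = 0.0408).

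Fibrinolysis and its control were likewise without a call. Plg, the precursor of plasmin, was 14.20 to 14.27 in controls and 14.08 to 14.17 in treated livers (-0.08 ± 0.05 SE, limma adjusted p = 0.283). Serpinf2, the plasmin inhibitor, was at -0.09 and Hrg, a heparin- and plasminogen-binding protein, at 0.06. Over the 39 genes the treated range lay wholly below the control range in 10 and above it in 1, F7, against 7.21% and 5.73% of all genes. These shares were not computed for the brighter genes alone. Cfi, F13b and Plg are those among the 10 that limma did not call.

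The anticoagulants did not pass either. Serpinc1, antithrombin, had a control level of 14.22 ± 0.04 and a treated level of 14.24 ± 0.03 (SD, n = 5), with a 95% interval of the difference from -0.10 to 0.13. Proc, protein C, was at -0.10 ± 0.06, Pros1 at -0.13 ± 0.08 and Serpind1, heparin cofactor II, at 0.13 ± 0.07 (SE, limma adjusted p = 0.223 to 0.281). Without control replicate 4, Serpind1 was called higher (0.18, adjusted p = 0.0459).

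**Figure D4:**
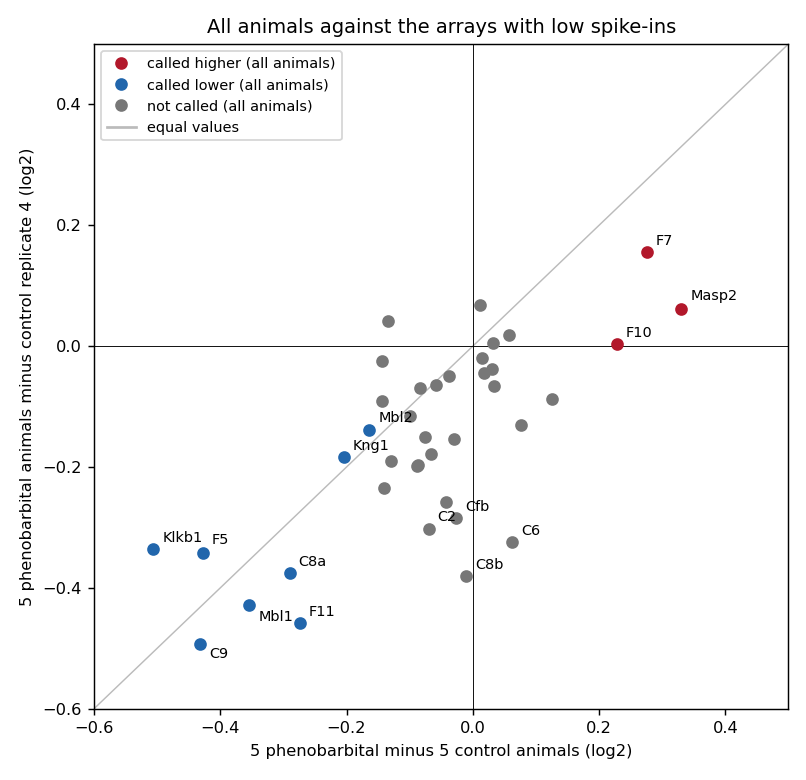
Log2 difference of each of the 39 genes with all animals (horizontal axis, 5 against 5) and against control replicate 4, the only control array with low spike-ins (vertical axis); colours give the call with all animals and the diagonal marks equal values. The blue genes stay between -0.49 and -0.14 on the vertical axis, the red ones drop to between 0.004 and 0.16, and C8b, C6, C2 and Cfb move down to between -0.38 and -0.28.

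Across the 39 genes, 26 had a negative difference with all animals and 32 against control replicate 4. The median was -0.07 with all animals and -0.14 against that control. The 8 lower genes kept a negative sign with the block and the 3 higher genes a positive one, at adjusted p of 0.105 to 0.555 and 0.637 to 0.993. The difference was larger against control replicate 4 in C9, C8a, Mbl1 and F11 and smaller in Klkb1, F5, Kng1 and Mbl2.

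Other genes of these pathways, from lists drawn up for both cascades, are given for context. Of 20 further complement genes measured, 5 were called lower and 1 higher (11.3% and 9.02% of all genes). The lower ones included 3 more lectins that recognise sugars and bind MASP proteases. Fcnb, ficolin B, a lectin of the same kind on this list, was not called (-0.08, limma adjusted p = 0.437), at 5.81 in controls. Fcna, ficolin A, went from 9.24 ± 0.21 to 8.72 ± 0.16 (SD, n = 5), a difference of -0.52 (limma adjusted p = 0.00617). It is the only gene of these lists called with the spike-in set as a block (-0.80, adjusted p = 0.0475). Fcna is known as a macrophage product. Colec10 went from 8.50 ± 0.11 to 7.99 ± 0.17 and Colec11 from 10.36 ± 0.12 to 9.92 ± 0.24 (SD, n = 5; adjusted p = 0.00223 and 0.0135). These collectins had differences of -0.52 and -0.31 with the block, which did not pass. Cd55, a decay-accelerating membrane protein, and Cfhr2, a relative of factor H, were lower (-0.72 and -0.39). Cd46, a membrane cofactor, was higher (0.39), from a low level of 5.94 in controls to 6.33 in treated livers.

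The late component C5, under its mouse symbol Hc, did not pass (-0.09 ± 0.07 SE, limma adjusted p = 0.373), and neither did the C1q chains C1qa, C1qb and C1qc (-0.04, -0.07 and 0.23; adjusted p = 0.240 to 0.815). Of 32 further coagulation and fibrinolysis genes, 4 were called higher and 2 lower, near the shares of all genes (9.02% and 11.3%). F3, tissue factor, was low on the array and lower in treated livers (5.46 ± 0.26 to 4.84 ± 0.33, SD, n = 5; adjusted p = 0.0157), as was Thbd, the endothelial thrombin receptor thrombomodulin (-0.38, adjusted p = 0.0161). F2r, a thrombin receptor (0.30), S100a10, which binds plasminogen activator at the cell surface (0.40), Thbs1 (0.44) and Serpinb2 (0.35) were higher. Thbs1 was below the array medians (4.53 in controls, 4.97 in treated livers), and Serpinb2 was near the bottom of the scale. Ggcx and Vkorc1, the enzymes of vitamin K-dependent carboxylation that F7, F10, Proc and Proz products need, did not pass (0.08 ± 0.08 and 0.07 ± 0.06 SE).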

How the data were processed

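Liver RNA was labelled by 3' in vitro transcription from an oligo(dT) primer and hybridised to Affymetrix arrays, per the labels' protocols. GCOS was used, per the submitters' processing notes. The authors deposited log2 values, 1 per probe set and array; the log2 scale was read from their range (2.34 to 15.13), and the method of summary and normalisation is not stated in the labels. Values were used as deposited: quartiles differed by at most 0.16 between the 10 arrays, although the upper quartile was lower in every treated array than in every control. Groups and replicates came from the labels.

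Each of 18193 genes was represented by its single-symbol probe set with the highest mean. Groups were compared with limma 3.58.1 in R 4.3.3 (lmFit, eBayes, two-sided, Benjamini-Hochberg over all genes, adjusted p under 0.05; probe sets singly over 45037). Within-array differences used exact permutation tests in Python 3.11.15; figures used matplotlib 3.10.9. Tested on simulated data of 18193 genes, the fit recovered 13.6% of changes of 0.25, 76.4% of 0.5 and 97.2% of 1 (log2), with 9.2 false calls a run. Small differences can therefore be missed. The simulation changed far fewer genes than were called in the data and used the spread of all genes. Its shares do not give the recovery for the members, of which Mbl2 was called at -0.16. Members, role lists, other lists and alternatives were chosen with earlier results of these data known. All members are named or counted by role; called ones are given for every animal, and other genes come from the fixed pathway and marker lists. No role had most of its genes called in 1 direction, the condition set for printing promoters, so the 4 shown were chosen after seeing values.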

Additional observations from a re-analysis of the deposited data

Results flagged for a closer look

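Of 78 groups of 5 animals (39 genes in 2 groups), 4 had 1 animal far from the other 4, where chance alone gives about 1 in 20 groups. C2 was 10.75 in control replicate 4 and 10.40 to 10.50 in the other controls, and C8b was 12.23 in the same animal against 11.70 to 11.81. Kng1 was 13.85 in control replicate 2 against 13.75 to 13.77. Fgb was 14.31 in phenobarbital replicate 2 against 14.36 to 14.37, a gap of 0.05 that stands out only because the other treated animals were so close together.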

How the results depend on the processing

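The counts of 3 genes called higher and 8 lower and the median of -0.07 were recomputed under each alternative. With the spike-in set as a block or the spike-in mean as a covariate, 0 were called higher and 0 lower, and the median was -0.14 and -0.12. Median centring gave 5 lower and 3 higher with a median of -0.032, so the share of higher calls rose, and among all genes the split moved from 1641 higher and 2051 lower to 2188 and 1532 (2305 and 1539 after quantile normalisation, which kept all 11 calls). Probe sets of the single-transcript type gave 1 higher. With 1 animal left out, 0 to 4 were called higher (0 without control replicate 2 or 3, 1 without phenobarbital replicate 2 or 4), 5 to 7 lower (5 without phenobarbital replicate 2 or 5), and the median ran from -0.0785 to -0.038. Masp1 was called lower (-0.36) when its probe sets were averaged, and Masp2 on its single-transcript probe set (-0.25). Deviations of same-numbered animals correlated at -0.02 to 0.12. Averaged over the 38 members other than C5ar1, replicate 4 lay above its group mean in both groups (0.08 in control, 0.03 in phenobarbital). Replicate 5 lay below it in both (-0.05 and -0.03), replicate 3 less so (-0.02 and -0.01), and replicates 1 and 2 differed in sign. Whether the replicate numbers pair the animals was not tested further. With the replicate block 3 were called higher and 6 lower, and Mbl2 and Kng1 lost their call. The number of arrays and compression at the top of the scale limit the precision.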
